A study of Rattus norvegicus with 4 samples.

Results

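The Kruppel-like factors are zinc finger transcription factors, and 9 of 10 listed family members were measured here among 14557 named genes. They were found by gene symbol: each of the 9 had 1 probe set to which the array's annotation gave that symbol alone, out of 14824 probe sets with a single symbol. Klf13 had none and was not analysed here. The cells were tail tendon fibroblasts of Lewis rats, retired breeders, held in gels of type I collagen. They were cultured for 2 days with 10% fetal bovine serum and then for 24 hours without it, in medium that held 10% of the releasate of clotted PRP or of clotted PPP, taken here to mean platelet-rich and platelet-poor plasma, the usual reading of these abbreviations. Both groups shared the strain, the gel, the base medium and the antibiotic/antimycotic mix, so the plasma product was the labelled difference between them. Of the 4 arrays 2 were of PRP cultures and 2 of PPP cultures, with none from cells without a plasma product, so a difference does not show which product moved a gene. The labels number the replicates but name neither the animal or culture behind each nor the plasma donors. The p-values below thus reflect the scatter of these arrays alone, and that scatter may be technical.

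Kruppel-like factors bind GC-rich and CACCC-type DNA through zinc fingers at the end of the protein, and differ in the part before the fingers. Klf2, Klf4, Klf5, Klf6 and Klf7 act largely as activators, though Klf4 also represses. Klf3 recruits the corepressor CtBP, and Klf9, Klf10 and Klf13 recruit Sin3A. Klf10 was first described as a gene induced early by TGF-beta, and mice without it have weakened tendons.

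Matches to the DNA these proteins bind are common among promoters, and some promoters of the family hold them too. Only 3 members have a start in the RefSeq promoter table at the outer start of the gene in the RefSeq gene table. Their promoters, those of Klf5, Klf6 and Klf9, are shown. Each runs from 250 bases before the start to 50 bases after it, 5′ to 3′ on the strand of the gene, in build GRCr8. Klf5 lies at chr15:82471831-82472130 on the plus strand, Klf6 at chr17:69458429-69458728 on the minus strand and Klf9 at chr1:230126396-230126695 on the plus strand. Capitals mark every match, on either strand, to the CACCC box (CACCC), the GC box (GGGCGG), the AP-1 site (TGANTCA), the core of the cAMP response element (TGACG), the CArG box bound by serum response factor and the MEF2 site.
Klf5: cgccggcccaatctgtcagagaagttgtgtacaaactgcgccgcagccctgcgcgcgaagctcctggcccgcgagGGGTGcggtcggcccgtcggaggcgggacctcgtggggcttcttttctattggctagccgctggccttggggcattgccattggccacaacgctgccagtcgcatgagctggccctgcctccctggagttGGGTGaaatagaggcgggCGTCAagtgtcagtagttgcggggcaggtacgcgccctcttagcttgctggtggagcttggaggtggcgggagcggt
Klf6: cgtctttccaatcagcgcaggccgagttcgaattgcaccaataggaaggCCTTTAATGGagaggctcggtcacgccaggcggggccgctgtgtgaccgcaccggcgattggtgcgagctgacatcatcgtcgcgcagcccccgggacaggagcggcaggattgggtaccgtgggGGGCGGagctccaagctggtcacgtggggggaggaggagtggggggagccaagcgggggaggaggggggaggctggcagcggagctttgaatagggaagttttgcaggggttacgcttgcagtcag
Klf9: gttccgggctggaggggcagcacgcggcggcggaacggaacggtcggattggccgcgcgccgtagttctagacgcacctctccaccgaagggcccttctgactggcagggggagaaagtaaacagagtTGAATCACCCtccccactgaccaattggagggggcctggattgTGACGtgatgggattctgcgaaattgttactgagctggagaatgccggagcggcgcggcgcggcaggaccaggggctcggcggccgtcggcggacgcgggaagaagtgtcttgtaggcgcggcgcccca
Klf5 held 2 CACCC boxes and 1 cAMP response core, Klf6 1 GC box and 1 CArG box, and Klf9 1 CACCC box, 1 AP-1 site and 1 cAMP response core. The AP-1 pattern used here leaves its middle base open, and the Klf9 match, TGAATCA, has an A there. This match and the CACCC box of Klf9 overlap by 2 bases. Of all 33469 promoters in the table, 54.9% held a CACCC box, 33.1% a GC box, 21.2% the cAMP response core, 7.33% an AP-1 site, 1.64% a CArG box and 3.29% a MEF2 site. For Klf3, Klf4, Klf7 and Klf15 the start in the promoter table lay 111 to 8592 bases inside the gene, and their windows are not shown, and Klf2 and Klf10 are named only. Over the 7 members with a window, 5 held a CACCC box, 3 a GC box and 0 a MEF2 site. Of these windows 4 began inside the gene, and 7 are too few to set apart from the shares of all promoters. The windows of Klf5, Klf6 and Klf9 were 65.3%, 64.7% and 65.3% G and C, against a median of 51.7% over all promoters. A match is a description of the letters and not a bound site, and the arrays measured no binding.

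No Kruppel-like factor passed the test between PRP and PPP, and the differences were small. By limma over all 14824 probe sets, 0 members were called higher and 0 lower at an adjusted p of 0.05, where 0.83% of all probe sets were called higher and 1.02% lower. At an unadjusted p of 0.05, 1 member was higher and 2 were lower, against 8.53% and 7.74% of all probe sets. The differences ran from -0.51 for Klf4 to 0.39 for Klf15 on the log2 scale, with a median of -0.16, while the median over all probe sets was -0.0027. The smallest difference that was called for any named gene was 0.64. Differences below that size were thus not called for any gene with these 4 arrays, and a missed threshold does not show that a factor was equal in both treatments.

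Klf4, a factor that governs the switching of smooth muscle cells and the barrier of skin, had the largest difference of the family. In gels with PRP it measured 6.48 and 6.24, and in gels with PPP 6.97 and 6.77, all on the log2 scale of the deposited values. Both PRP arrays lay below both PPP arrays, with 0.28 between the nearest, and the arrays of one treatment were 0.25 apart with PRP and 0.20 apart with PPP. The difference was -0.51 (SE 0.14, 95% interval -0.85 to -0.17), or 1.42-fold, and its adjusted p by limma was 0.168. It passed with an intensity trend in limma (adjusted p 0.0480), where 2.46% of all probe sets were called lower. It was the single member called under any of the 11 alternatives. In absolute size it lay above 94.3% of the named probe sets.

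Klf2, the factor that holds endothelium in a quiescent state under flow, overlapped between the treatments. It measured 4.25 and 4.42 with PRP, and 4.58 and 4.23 with PPP, so the highest and the lowest array were both PPP arrays. Its difference was -0.07 (SE 0.15, 95% interval -0.45 to 0.31).

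Klf5, which promotes growth of smooth muscle and epithelial cells, measured 6.28 and 6.38 with PRP, and 6.62 and 6.37 with PPP. PPP replicate 1 stood above the other arrays and PPP replicate 2 lay between the PRP arrays. The difference was -0.16 (SE 0.13, adjusted p 0.609 by limma). The RefSeq gene table lists the pseudogenes Klf5-ps1 and Klf5-ps2, and Klf4-ps1 for Klf4. Copies of this kind can share probes with the gene, and the values of Klf4 and Klf5 are uncertain to that extent.

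Klf6, an injury-induced factor and tumour suppressor, measured 7.02 and 6.87 with PRP, and 7.04 and 7.18 with PPP. Its groups were separated by only 0.015 between PRP replicate 1 and PPP replicate 1. Klf7, known for its part in neurite outgrowth, measured 7.69 and 7.60 with PRP, and 7.90 and 7.78 with PPP. For Klf7, too, the PRP arrays were below the PPP arrays, by 0.084 between the nearest. Their differences were -0.16 (SE 0.12) and -0.19 (SE 0.11), with adjusted p of 0.565 and 0.460 by limma.

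**Figure D1:**
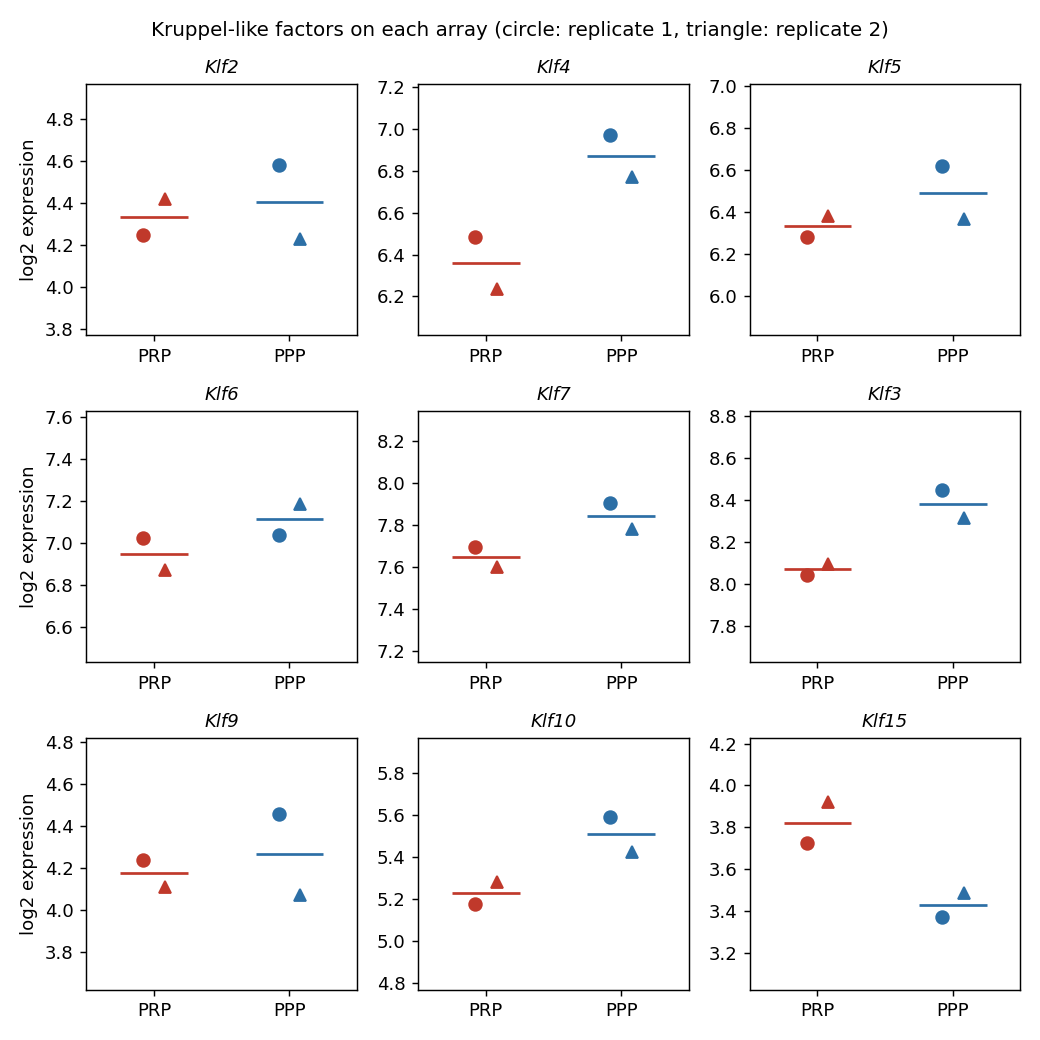
Log2 expression of the 9 measured Kruppel-like factors on each array, PRP on the left and PPP on the right of each panel, with circles for replicate 1, triangles for replicate 2 and bars for the mean of 2 arrays. All panels span the same range of log2 units. The groups are apart in Klf3, Klf4, Klf6, Klf7 and Klf10, with PRP lower, and in Klf15, with PRP higher; they overlap in Klf2, Klf5 and Klf9.

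The repressor Klf3 had the smallest gap between PRP arrays among the 9 measured members. It measured 8.04 and 8.10 with PRP, and 8.45 and 8.32 with PPP. Every PRP array lay below every PPP array, by 0.22 between the nearest, against gaps of 0.051 within PRP and 0.13 within PPP. The difference was -0.31 (SE 0.11, 95% interval -0.58 to -0.04), or 1.24-fold. Its unadjusted p was 0.0305 and its adjusted p 0.251 by limma, and with an intensity trend the adjusted p was 0.0567, short of the threshold.

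Klf10, the TGF-beta-induced member of the Sin3A-binding branch, measured 5.18 and 5.28 with PRP, and 5.59 and 5.43 with PPP. The PRP arrays were the lower ones, with 0.15 between the nearest arrays of the treatments. The difference was -0.28 (SE 0.12, 95% interval -0.57 to 0.01), 1.22-fold; limma gave it an adjusted p of 0.316. Klf9, of the same branch and induced by glucocorticoid and thyroid hormones, measured 4.24 and 4.11 with PRP, and 4.46 and 4.07 with PPP. PPP arrays were both the highest and the lowest, 0.39 apart, which is more than the difference of -0.09 (SE 0.16) between the treatments.

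Klf15 was the single member with a positive difference. This factor, induced by glucocorticoids and active in the metabolism of amino acids and glucose, measured 3.72 and 3.92 with PRP, and 3.37 and 3.49 with PPP. Both PRP arrays were above both PPP arrays, by 0.24 between the nearest, with gaps of 0.20 within PRP and 0.12 within PPP. The difference was 0.39 (SE 0.12, 95% interval 0.09 to 0.70), or 1.31-fold, and limma gave an unadjusted p of 0.0188 and an adjusted one of 0.211. Its levels were close to 3.49, the median over all deposited values, where a level cannot be told from background, and it stayed in a fit without dim probe sets only through its PRP mean. A ratio at that level is uncertain.

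**Figure D2:**
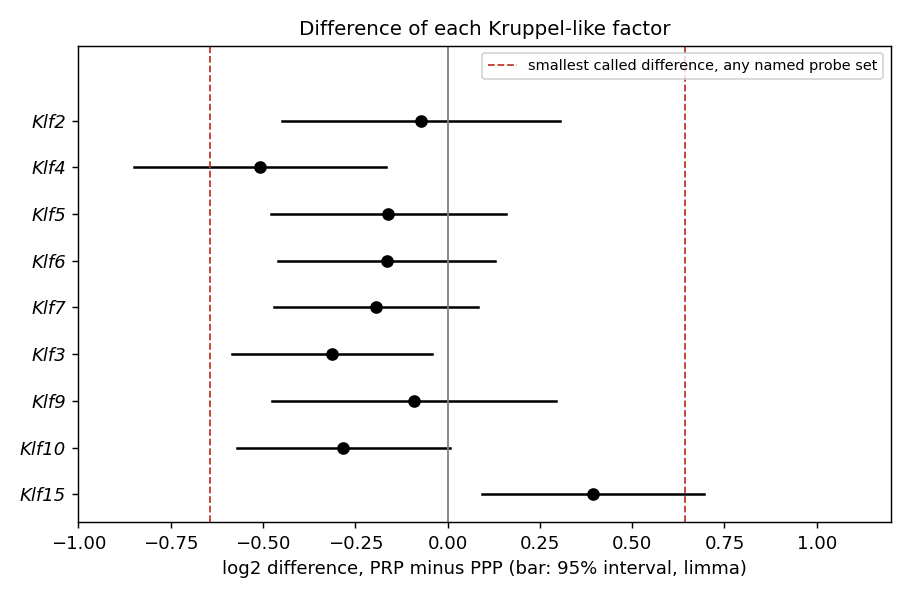
Log2 difference of each measured Kruppel-like factor, PRP minus PPP, as a point with its 95% interval from limma. Dashed lines stand at plus and minus 0.64, the smallest difference called for any named probe set; no member's point reaches them, and the intervals of Klf4 and Klf15 extend past one of them.

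The members' differences leaned one way. Of the 9 members 8 had a negative difference, as did 50.7% of all named probe sets, and the count of 8 was the same after median centring and after cyclic loess. In 5 members the PRP arrays lay below the PPP arrays without overlap and in 1 above them, where 22.5% and 23.9% of all named probe sets did so. All 9 were read from the same 4 arrays and are not replicates of the treatment. PPP replicate 1 was the highest of the 4 arrays in 7 of the 9 members, against 32.4% of all named probe sets. Its median over all deposited probe sets was 3.53, close to the 3.52 of PPP replicate 2. The medians of PRP replicates 1 and 2 were 3.42 and 3.50. A part of these medians in the members' values was not tested. After median centring the median difference of the members was -0.13 and that of all named probe sets 0.034. Centring shifts every difference by the same amount. After cyclic loess these medians were -0.24 and -9.6e-05. Without PPP replicate 1, 6 of the 9 differences were negative. The members' median was then -0.13, and that of all named probe sets 0.018. Klf2 and Klf9 then stood at 0.10 each, and Klf5 at -0.03.

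With each array left out in turn, the difference of Klf4 ran from -0.63 to -0.38, that of Klf3 from -0.38 to -0.25, that of Klf10 from -0.37 to -0.20 and that of Klf15 from 0.30 to 0.49. The arrays of these 4 members did not overlap between treatments, which fixes the sign of a difference with 1 array left out. In these fits 1 treatment had a single array, which was assumed to vary like the other treatment's, and 1 residual degree of freedom was left, so a missed threshold says little. No member was called in them, and the lowest adjusted p was 0.186, for Klf4 without PPP replicate 2. The median difference of the members was -0.13 without PPP replicate 1 and -0.28 without PPP replicate 2. It was -0.23 without PRP replicate 1 and -0.16 without PRP replicate 2. Over all named probe sets these medians ran from -0.017 to 0.018.

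**Figure D3:**
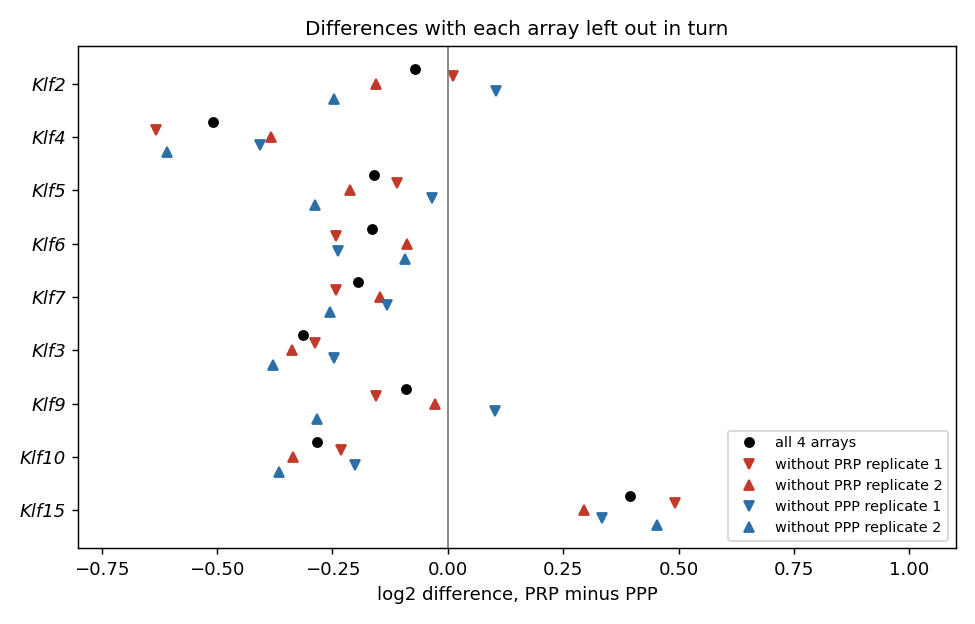
Log2 difference, PRP minus PPP, of each measured Kruppel-like factor with all 4 arrays (black) and with 1 PRP array (red) or 1 PPP array (blue) left out. Klf3, Klf4, Klf6, Klf7 and Klf10 stay below 0 and Klf15 above it, while Klf2 and Klf9 cross 0 without PPP replicate 1, Klf2 also without PRP replicate 1.

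The rest of the family and its relatives gave no calls either, and many of them were dim. The means of Klf1, Klf8, Klf14, Klf17, Sp5, Sp6, Sp8 and Sp9 lay below 3.49 in both treatments. That is the median of all deposited values, where a level cannot be told from background. A missing call thus says little for these genes. Of 6 other Kruppel-like factors measured, limma called 0, and 0 passed an unadjusted p of 0.05. Their differences ran from -0.16 to 0.07, with a median of -0.08, and 4 were negative. Klf11, the closest relative of Klf10, measured 5.09 and 4.76 with PRP, and 5.27 and 4.90 with PPP, so its replicates differed more than its treatments. Klf12, a CtBP-binding repressor like Klf3, had a difference of -0.02 (SE 0.12). Klf8, of the same branch, had -0.14 (adjusted p 0.561 by limma) and Klf14, of the Sin3A-binding branch, -0.16 (adjusted p 0.702). The Sp factors, which bind the same GC-rich DNA, gave 0 calls and 0 at an unadjusted p of 0.05 among 6 measured, with a median of -0.06. Sp1, the general activator of the group, stood at -0.05, Sp9 at -0.28 (adjusted p 0.365) and Sp8 at -0.12 (adjusted p 0.677).

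Lists of genes from pathways tied to the factors held a few calls, and not all of the listed genes act upstream of a factor. In endothelium the kinase ERK5 and the MEF2 factors switch on Klf2 and Klf4. Of 6 measured genes of that pathway 1 fell, 0 rose and the median difference was -0.16. The gene that fell was Mef2c, a MEF2 factor, which measured 6.92 and 6.86 with PRP, and 7.53 and 7.54 with PPP. Its difference of -0.64 (SE 0.10, adjusted p 0.0491 by limma) was the smallest of any called gene, and the call was lost whichever array was left out (adjusted p up to 0.298). Map2k5, the kinase that activates ERK5, had a difference of -0.46 and did not pass (adjusted p 0.179).

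A TGF-beta list held genes of the signalling itself as well as genes of the early response. Of 6 measured genes on it 1 rose and 0 fell, with a median of 0.13. Smad2, Smad3, Smad7 and Id3 stood at 0.06, -0.18, -0.0066 and 0.19, none of them called. The activity of TGF-beta signalling was not measured. Tgif1, a repressor of Smad-driven transcription, rose by 0.72 (adjusted p 0.0340 by limma), with 7.65 and 7.64 for PRP, and 6.94 and 6.90 for PPP. That call, too, was lost whichever array was left out (adjusted p up to 0.232). Id1, an inhibitor of differentiation factors, had a difference of 0.64 and did not pass (adjusted p 0.0796), though it did with an intensity trend (0.0178). Among 9 measured genes of a glucocorticoid list, made up of the receptor gene and genes induced by glucocorticoids, limma called 0. At an unadjusted p of 0.05, 2 of the list were higher, against 8.53% of all probe sets. The receptor gene Nr3c1 and the signalling inhibitor Errfi1 had differences of 0.46 and 0.44, with adjusted p of 0.140 and 0.242. Among 10 clock genes, some of which drive the daily rhythm of Klf9, Klf10 and Klf15, limma called 0. At an unadjusted p of 0.05, 1 was higher and 4 were lower, against 8.53% and 7.74% of all probe sets. Npas2, a relative of Clock, had a difference of 0.71 (adjusted p 0.0759) and Cry2, a clock repressor, one of -0.61 (adjusted p 0.0684). With an intensity trend these passed as well (0.00912 and 0.0193).

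The measured partners of the proteins were mixed. Of 13 listed corepressors, coactivators and ubiquitin ligases 7 were measured, and Sin3a, Sin3b and Ctbp2 were not among them. Of the 7 measured, 1 fell and 0 rose, with a median of -0.03. Fbxw7, the ligase subunit that marks Klf2 and Klf5 for degradation, measured 6.55 and 6.55 with PRP, and 7.38 and 7.45 with PPP. It fell by 0.86 (SE 0.10, adjusted p 0.0194 by limma), and the call was lost whichever array was left out (adjusted p up to 0.155). The protein levels of Klf2 and Klf5 were not measured. Hdac1, a histone deacetylase of the Sin3A complex, had a difference of 0.39 and did not pass (adjusted p 0.159). Nor did the measured CtBP gene, Ctbp1, at 0.36 (adjusted p 0.209 by limma).

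The lists of known target genes held 2 calls. Of 10 vascular genes controlled by Klf2 and Klf4 elsewhere, 2 rose and 0 fell, with a median of 0.09. At an unadjusted p of 0.05, limma found 3 higher and 1 lower, against 8.53% and 7.74% of all probe sets. The lower one was S1pr1, at -0.87 and just short of a call (adjusted p 0.0539 by limma). The 2 that rose were the chemokine Ccl2, which Klf2 restrains in endothelium, and Adm, the vasodilator peptide adrenomedullin. Ccl2 measured 10.60 and 10.63 with PRP, and 8.91 and 8.87 with PPP. The differences of Ccl2 and Adm were 1.72 and 1.77 (adjusted p 0.00271 and 0.00311 by limma). Of 12 genes on the smooth muscle list tied to Klf4 and Klf5 only 6 were measured. All 6 had negative differences, between -0.71 and -0.24 with a median of -0.37, as did 50.7% of all named probe sets. Limma called 0 of them, and 4 were lower at an unadjusted p of 0.05, against 7.74% of all probe sets. The growth factor-induced Egr1 stood at -0.71 and the myosin light chain Myl9 at -0.48, with adjusted p of 0.108 and 0.112, and both passed with an intensity trend (0.0121 and 0.00278). Of 8 growth genes linked to Klf6 and Klf4 limma called 0, with 2 higher at an unadjusted p of 0.05. The cyclins Ccne1 and Ccnb1 stood at 0.41 and 0.40 (adjusted p 0.141 and 0.245). Of 8 metabolic genes linked to Klf15 limma called 0, with 1 lower at an unadjusted p of 0.05. Gpt2, an alanine aminotransferase, and Acss2, which makes acetyl-CoA, stood at -0.40 and -0.21 (adjusted p 0.300 and 0.502).

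**Figure D4:**
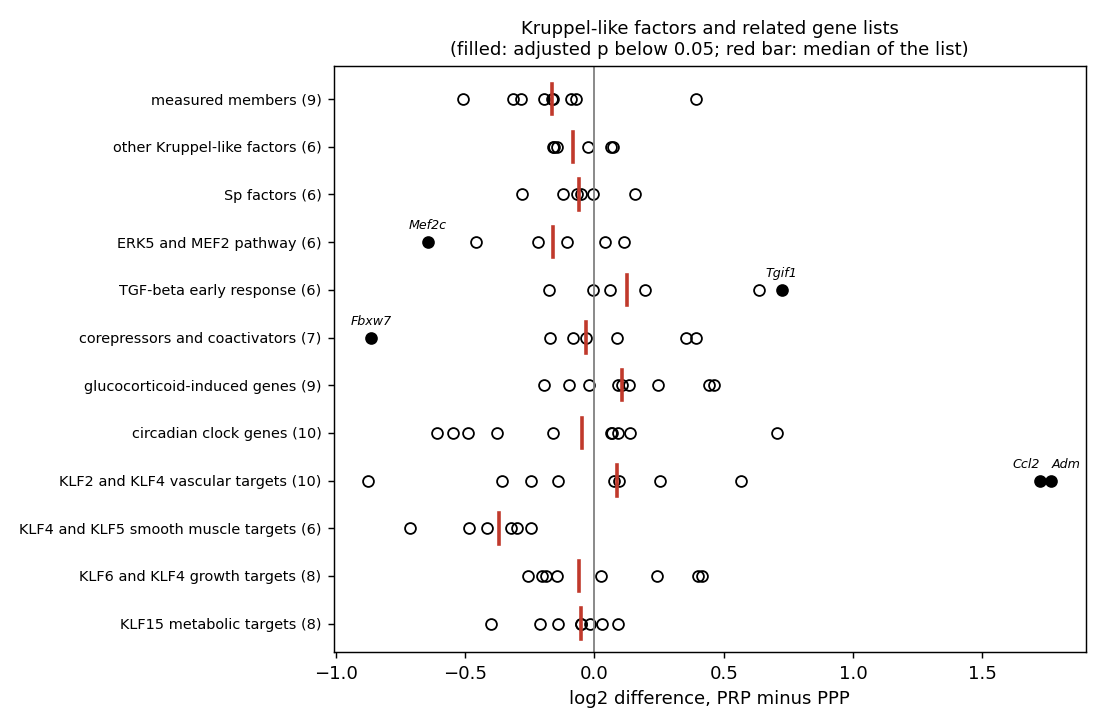
Log2 difference, PRP minus PPP, of each measured gene in the Kruppel-like factors and in 11 related lists, with the number measured in brackets. Filled points passed an adjusted p of 0.05 by limma, red bars are medians; the filled points are Mef2c, Tgif1, Fbxw7, Ccl2 and Adm, and no Kruppel-like or Sp factor is among them.

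The genes most like Klf4 over the 4 arrays, by distance after each probe set's mean was taken off, were Bhlhe40, a clock repressor, Col6a1, a chain of type VI collagen, and Mob2, a regulator of NDR kinases. Their distances were 0.057, 0.059 and 0.061 log2 units and their differences -0.49, -0.52 and -0.55. None was called by limma (adjusted p 0.182, 0.145 and 0.123), while with an intensity trend Bhlhe40 and Col6a1 passed (0.0487 and 0.0140). Likeness over 4 arrays is a description and rests on few values.

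All 11 measured tendon fibroblast markers lay above 3.49, the median of all deposited values, a rough guide only, since levels of different probe sets cannot be compared. Of these markers 2 fell with PRP and 0 rose. At an unadjusted p of 0.05 limma found 7 lower and 2 higher, against 7.74% and 8.53% of all probe sets. Their median difference was -0.53, with Fmod, a collagen-binding proteoglycan, at -2.43 (adjusted p 0.00271 by limma). In 8 of them the PRP arrays lay below the PPP arrays without overlap and in 3 above them, against 22.5% and 23.9% of all named probe sets. The summed log2 levels were 88.9 to 89.0 with PRP and 94.1 to 94.5 with PPP. These sums include Fmod, the marker with the largest fall. The negative differences of most Kruppel-like factors stood beside lower levels of most, not all, tendon markers, and a link between them was not tested. Endothelium and blood cells also express Kruppel-like factors. Of 8 endothelial markers 2 lay above that median, and their summed log2 levels were 23.1 to 23.9 with PRP and 23.1 to 23.5 with PPP. Of 10 leukocyte and macrophage markers 3 lay above it, with sums of 31.6 to 31.7 with PRP and 31.8 to 33.2 with PPP. Limma called 0 markers of endothelium, leukocytes, red cells or keratinocytes, where 2, 4, 1 and 0 passed an unadjusted p of 0.05. The markers with the smallest p were Tek (0.68), Tyrobp (-0.87), Hbb-b1 (0.53) and Krt17 (-0.39), as log2 differences. Their lists did not all follow them: 4 of 8 endothelial differences were positive (median 0.0015) and 7 of 10 leukocyte differences negative (median -0.09). Positive, too, were 3 of 3 red cell differences (median 0.45) and 2 of 3 keratinocyte differences (median 0.03). Only 1 red cell marker and 0 keratinocyte markers lay above 3.49, and lower levels cannot be told from background. Pf4, of 5 platelet markers, rose by 1.85, 2 of 7 adipocyte markers rose, Fabp4 by 1.61, and Acta1, of 6 muscle markers, fell by 1.12. Of the platelet differences 3 were negative (median -0.13), of the adipocyte differences 4 were positive (median 0.02) and of the muscle differences 4 were positive (median 0.05). The call of Acta1 was lost with any 1 array left out, with an adjusted p as high as 0.237. Fabp4 kept its call only without PRP replicate 1, and its highest adjusted p was 0.0834. The part of these in the values of the Kruppel-like factors was not tested. In bulk RNA fewer cells of a type and less RNA per cell cannot be told apart. Over the named probe sets the PRP arrays correlated at 0.995 and the PPP arrays at 0.994, and arrays of different treatments at 0.987 to 0.990, across probe sets that are not independent replicates.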

How the data were processed

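Per the submitters' processing notes, the authors used oligo, RMA and limma, with no version, role or order given. The deposited table held log2 values of 36685 probe sets, from 0.861 to 12.3, on 4 arrays. RMA brings array distributions close together; here the medians over all deposited probe sets were 3.42 and 3.50 with PRP, and 3.53 and 3.52 with PPP. It gives no detection call, so low values cannot be told from background and one probe set's level cannot be set against another's. Per the labels' protocols, 15 ng of total RNA entered cDNA amplification, and 3 ug of the product received biotin. The genome build is not given in the sources used here. The platform's annotation in GEO gave 14824 probe sets exactly 1 symbol, 829 several, and left 21032 unnamed.

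The comparison of PRP with PPP was a two-sided test by eBayes after lmFit, without an intensity trend, from limma 3.58.1 under R 4.3.3. It covered the 14824 probe sets, with Benjamini-Hochberg adjustment over all of them and calls at 0.05. The fit had 2 residual and 3.87 prior degrees of freedom. In lists, the probe set with the highest mean stood for a gene. Arrays have no read depth; their number limits the precision. Sequences came from RefSeq tables of GRCr8.

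The members, lists and alternatives were chosen with earlier results of these data known. Named were all members, the called genes of each list or otherwise the genes with the smallest p up to 2, the marker with the smallest p of each cell type, and the 3 genes nearest to the member with the largest difference. Klf1, Klf11, Klf12, Klf17, Sp1, Sp5, Sp6, S1pr1, Smad2, Smad3, Smad7, Id3 and Ctbp1 were named outside this rule, after their values were seen. Alternatives were an intensity trend, a replicate block, median centring, cyclic loess, leaving out dim probe sets, all deposited probe sets, no moderation, and leaving out each array.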

Additional observations from a re-analysis of the deposited data

How the results depend on the processing

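The number of Kruppel-like factors called stayed at 0 in each direction in 10 of the 11 alternatives. With an intensity trend in limma 1 was called lower, Klf4, at an unchanged difference of -0.51. The number of all named probe sets called was 274 in the report, 808 with the trend, 123 with a replicate block, 517 with dim probe sets left out and 2 when all deposited probe sets were fitted. It was 0 without moderation, where 1799 passed an unadjusted p of 0.05. With 1 array left out it ran from 56 to 81, with 1 residual degree of freedom. The replicate numbers share only a number: deviations of same-numbered arrays correlated at 0.0056, and the replicate block called 0 members. Directions turned in 4 cases, none of them called: Klf2 stood at 0.10 without PPP replicate 1 and at 0.012 without PRP replicate 1, Klf9 at 0.10 without PPP replicate 1, and Klf14 at 0.0043 without PRP replicate 1. With other arrays left out they reached -0.25, -0.28 and -0.32. The cause was not tested. The calls of Mef2c, Tgif1 and Fbxw7 ended with a replicate block (adjusted p 0.130, 0.102 and 0.0735 by limma) and with any 1 array left out. Calls were also gained: Hdac1, Nr3c1, Ccne1 and Tyrobp passed with the trend (0.0213, 0.0262, 0.0457 and 0.0271), as did the genes so named in the report. Tyrobp also passed after median centring, after cyclic loess and with dim probe sets left out (0.0280, 0.0376 and 0.0293). It stayed in that last fit only through its PPP mean of 3.75. Its PRP mean of 2.88 lay below 3.49, where a level cannot be told from background, so its difference is uncertain. Id1 and Npas2 passed after median centring (0.0403 and 0.0449), Cry2 after cyclic loess (0.0460), and Id1, Npas2, Cry2 and Myl9 with dim probe sets left out (0.0385, 0.0386, 0.0297 and 0.0479). The calls of Ccl2 and Adm ended when all deposited probe sets were fitted (0.0805 and 0.0857) or without moderation (0.202 and 0.216). Without scanner files, signal over background limits what can be said of Klf15, and to a lesser degree of Klf2 and Klf9. It limits the dim relatives more, among them Klf8, Klf14, Sp8 and Sp9, which were dropped from the fit without dim probe sets.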
